A study of Mus musculus with 4 samples.

Results

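MHC class I molecules show peptides from inside a cell to cytotoxic T cells, and 10 mouse genes that build this route were followed here in mouse embryonic fibroblasts (MEFs) with and without the retinoblastoma protein Rb. The genes were picked by symbol. B2m, H2-D1 and H2-K1 form the complex at the cell surface, Tap1, Tap2 and Tapbp bring peptides to it, Psmb8, Psmb9 and Psmb10 are the inducible catalytic subunits of the proteasome, and Nlrc5 is a transactivator of class I genes. All probes with these symbols were taken, which gave 17 of the 45281 probes on the array. They cover 9 of the 10 genes. Nlrc5 was not analysed here, since no probe carries its symbol, its older names or its Entrez number. Of the 17 probes, 14 were detected on all 4 arrays, 1 more on 3 arrays only, and 2 on none (detection p-value below 0.01). Each of the 9 genes was thus among the 12616 analysed.

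Every array held RNA of 1 culture of MEFs of FVB;129 background whose Rb gene is floxed. Parental MEFs received a solution without TAT-Cre and then media alone, and kept Rb. Rb-deleted MEFs received TAT-Cre, a recombinase that enters cells by itself, followed by media alone. MEFs labelled WT Rb-HA in the study received TAT-Cre together with a retrovirus for wild-type Rb, and ΔCdk Rb-HA cells one for a phospho-mutant Rb that Cdks cannot phosphorylate. They are called WT Rb and ΔCdk Rb MEFs here. Each treatment was given 2 times for 1 h, 3 h apart. The labels do not mention the doxorubicin treatment and the release from contact arrest, which the paper describes for these RNAs in all 4 cultures. Only the parental culture was without TAT-Cre, so loss of Rb and exposure to TAT-Cre cannot be told apart, and in both rescue cultures Rb came from a retrovirus. With 1 array per condition no test was possible and none of the differences below has a replicate check. Errors given are standard errors over the beads of a probe (22 to 57 beads), which cover the spread within an array only, and the number of arrays limits the precision. A difference is called larger than bead error if it exceeds 1.96 bead standard errors (a 95% interval). The 3 ratios to parental share the parental array and are therefore set side by side without counting as separate evidence.

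Class I heavy chains are made in the endoplasmic reticulum, where they pair with beta-2-microglobulin and are filled with a peptide before they leave for the surface. Peptides come from the proteasome and are pumped in by the TAP transporter, a dimer of Tap1 and Tap2, and tapasin (Tapbp) holds an empty heavy chain next to TAP. Interferons raise the whole route together, through interferon regulatory factors and other factors that bind interferon-stimulated response elements (ISREs), while NLRC5 acts on class I promoters through factors at their X and Y boxes. Under interferon the subunits Psmb8, Psmb9 and Psmb10 replace Psmb5, Psmb6 and Psmb7 in newly made proteasomes, which are then called immunoproteasomes. Fibroblasts keep the route at a moderate level without infection.

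Array quality was similar across conditions. Mean intensity was 336 to 346, background lay near 36 to 37, and 15950 to 16740 probes were detected per array. The Rb1 probe at transcript position 4421 was at 543 intensity units in parental MEFs, 160 in Rb-deleted, 181 in WT Rb and 170 in ΔCdk Rb MEFs, lower wherever TAT-Cre was given. Whether this probe detects the retroviral Rb was not tested. All 16 fibroblast markers were detected on all 4 arrays.

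Parental MEFs had the highest normalized signal of the 4 arrays for each of the 9 genes, and Tap2, Psmb8, Psmb9 and Psmb10 were lower than parental by more than 1.6-fold, the filter used in the study, on all 3 other arrays. Compared to parental, 4 of the 9 genes passed this filter in Rb-deleted MEFs, against 2.98% of all genes analysed. In WT Rb MEFs 6 of the 9 were lower by this much, with H2-K1 and Tap1 added (2.46% of all genes), and in ΔCdk Rb MEFs it was the same 6 of the 9 (3.3% of all genes). B2m, H2-D1 and Tapbp passed it on none of these arrays. The count in WT Rb MEFs was 5 without background correction, at an offset of 50 and with median scaling, where Tap1 stood at -0.59, -0.56 and -0.67, and also with the mean over detected probes. No member was higher past this filter on any of these arrays, where 2.14%, 0.888% and 2.58% of all genes were. The median log2 ratio of the 9 genes was -0.60 in Rb-deleted, -0.86 in WT Rb and -1.07 in ΔCdk Rb MEFs, while the median over all genes lay between -0.01 and 0.02. Tap1 in WT Rb MEFs stood just inside the filter (log2 ratio -0.68) and H2-K1 in Rb-deleted MEFs just outside it (-0.60).

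**Figure D1:**
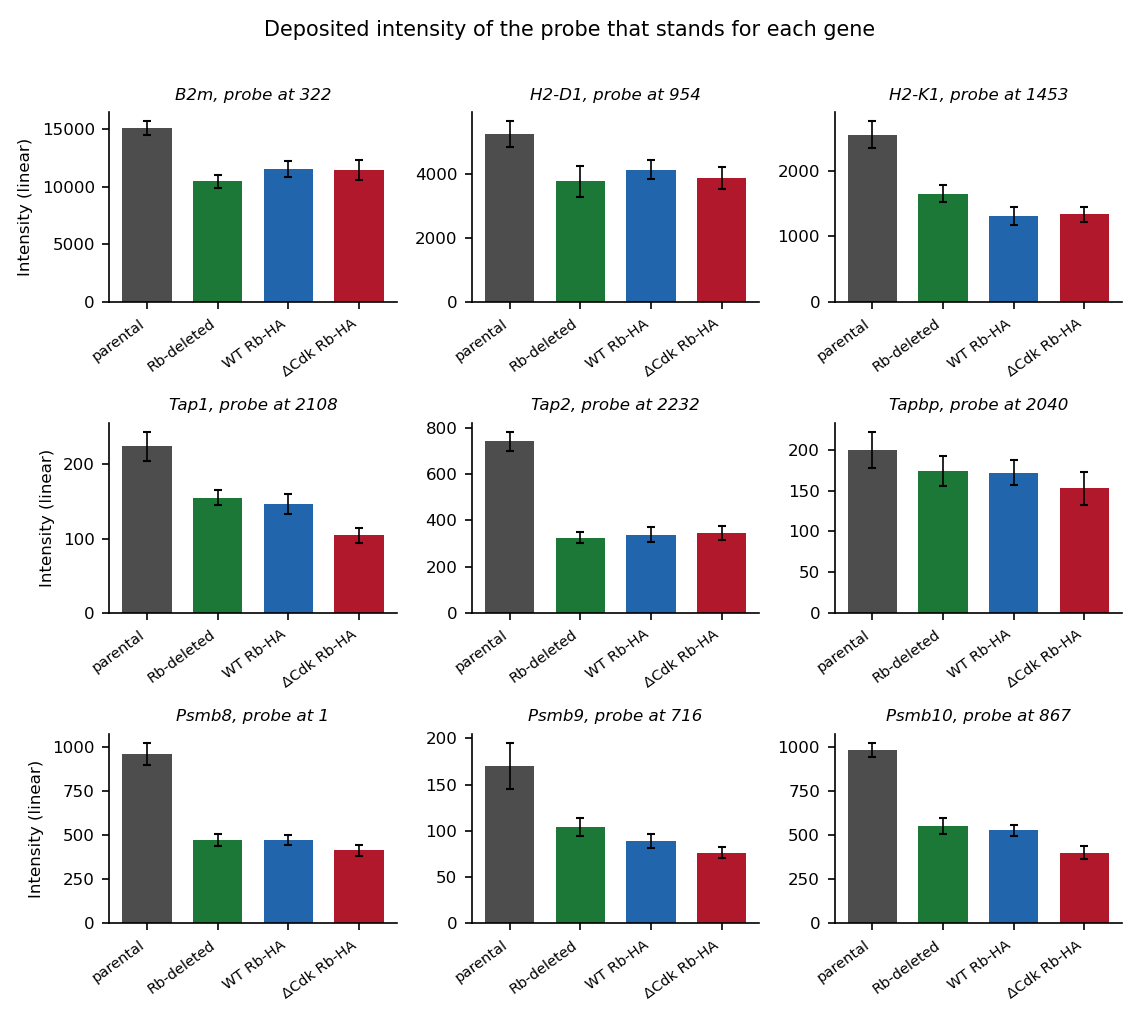
Deposited intensity (linear scale, one panel per gene, each from 0) of the probe that stands for the gene on the parental, Rb-deleted, WT Rb and ΔCdk Rb arrays, 1 array each; error bars are 1.96 bead standard errors. The parental bar is the tallest in all 9 panels, and Psmb9 drops from 170 to 76.3 between the parental and ΔCdk Rb arrays.

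Of the surface complex, B2m and H2-D1 were lower by less than 1.6-fold on each array and H2-K1 by more than that in both rescue cultures. The probe of B2m, the light chain that every class I molecule needs, at transcript position 322 had an intensity of 15087 in parental, 10436 in Rb-deleted, 11529 in WT Rb and 11442 in ΔCdk Rb MEFs. Parental MEFs were above the other 3 arrays, whose values did not differ from each other by more than bead error. The log2 ratios to parental were -0.50 (bead standard error 0.06), -0.43 (0.05) and -0.39 (0.06), all larger than bead error and none past 1.6-fold. A second B2m probe starts 1 base earlier, at position 321, and shares 49 of its 50 bases with the first. Its log2 ratios were -0.53, -0.48 and -0.58. These nearly identical probes thus differed by 0.19 (0.08) in ΔCdk Rb MEFs, which is larger than bead error. In Rb-deleted and WT Rb MEFs they differed by 0.04 and 0.05, within it. Bead error therefore did not cover all of the spread between these probes. The third probe, at position 535, was at background on every array, with intensities of at most 37.2. B2m also served as the reference transcript for the qRT-PCR measurements of the study. On these arrays, a list of 10 genes often used as references, written after the values of B2m had been seen, had 9 members analysed, with log2 ratios to parental from -0.43 to 0.32 and medians of 0.01, -0.11 and 0.02. Both B2m probes were below the lowest of these genes in Rb-deleted (-0.28) and WT Rb MEFs (-0.38, Ywhaz in both), and on the ΔCdk Rb array Ywhaz (-0.43) lay between them.

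H2-D1 encodes one of the classical heavy chains. Its probe at position 954 gave 5253 in parental, 3777 in Rb-deleted, 4141 in WT Rb and 3874 in ΔCdk Rb MEFs, and the one at position 1084 gave 5586, 3107, 3584 and 3453. Both were highest in parental MEFs and lowest in Rb-deleted MEFs. The log2 ratios to parental were -0.43 (0.11), -0.33 (0.06) and -0.41 (0.07) for the first and -0.79 (0.09), -0.58 (0.07) and -0.64 (0.07) for the second. Only the second passed 1.6-fold, and only in Rb-deleted MEFs. That probe shares a run of 34 bases with a probe of LOC547343, a sequence similar to a class I heavy chain, whose log2 ratios were -0.73, -0.54 and -0.62, so transcripts of related heavy chain genes may be counted together there. The probe at position 889 stayed at background (43.6 to 47.3). Heavy chains are highly polymorphic, and whether the probes match the alleles of these FVB;129 cells was not tested.

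H2-K1, the other classical heavy chain measured, gave 2551 in parental, 1651 in Rb-deleted, 1311 in WT Rb and 1335 in ΔCdk Rb MEFs at position 1453. Here the Rb-deleted array lay between parental and both rescue arrays, with each step larger than bead error, and the rescue arrays did not differ from each other beyond it. The log2 ratios to parental were -0.60 (0.09), -0.94 (0.10) and -0.89 (0.09). The dim probe at position 842 had 65.4, 56.6, 60.7 and 45.8, was not detected in ΔCdk Rb MEFs, and shares 24 bases with a probe of H2-Q6. The parental signal of this probe exceeded that of ΔCdk Rb MEFs at least 1.31-fold, and its ratios on the other arrays were within bead error.

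Promoter sequences of the 3 genes of the surface complex are shown because they hold the elements through which class I genes are known to be controlled. RefSeq windows of 300 bases, from 250 bases before the annotated start to 50 after it, were available for 8 of the 10 genes (build GRCm38.p6, the C57BL/6J reference and not the strains of these cells). The motifs searched, on both strands, were GGGATTCCC for a kappaB site, GAANNGAAA and GAAANNGAAA for an ISRE core, TGACG for the X2 box, ATTGG for the Y box, and TTCNNNGAA for a gamma-activated sequence (GAS). None of these overlapped another in the stretches below, which are written 5′ to 3′ on the strand of the gene, up to the base before the start, with matches in capitals. GAS elements are not marked, and no GAS match was found in these 3 windows. The stretches lie at chr2:122147537-122147686 (plus strand) for B2m, chr17:35262914-35263093 (plus strand) for H2-D1 and chr17:34000348-34000467 (minus strand) for H2-K1.
B2m: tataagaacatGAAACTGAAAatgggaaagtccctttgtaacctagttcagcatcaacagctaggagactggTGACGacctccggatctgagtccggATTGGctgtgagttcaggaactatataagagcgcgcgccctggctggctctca
H2-D1: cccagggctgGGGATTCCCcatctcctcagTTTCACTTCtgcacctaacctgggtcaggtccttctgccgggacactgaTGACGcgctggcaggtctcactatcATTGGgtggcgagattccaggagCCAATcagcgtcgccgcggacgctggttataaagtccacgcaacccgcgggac
H2-K1: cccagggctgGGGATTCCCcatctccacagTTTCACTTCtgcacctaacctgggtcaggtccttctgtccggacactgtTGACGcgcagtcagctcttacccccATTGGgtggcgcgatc

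H2-D1 and H2-K1 both carried GGGATTCCC followed by a GAANNGAAA match on the opposite strand, starting at -170 and -150 from the start of H2-D1 and at -110 and -90 from the upstream start of H2-K1. B2m had no GGGATTCCC match and held GAAANNGAAA at -139. The kappaB search used these exact letters only, so other forms of a kappaB site were not looked for in any window. In each of the 3 genes TGACG and ATTGG followed each other on the gene's strand with their first bases 25 bases apart, at -78 and -53 in B2m, -101 and -76 in H2-D1, and -41 and -16 in H2-K1. Among all 32851 promoter windows 31 (0.0944%) had TGACG and ATTGG at this spacing on either strand, and no other member window did. Only this spacing, the one these 3 genes show, was counted, so the share is no test of it. GGGATTCCC was found in 0.353% of all windows, GAANNGAAA in 7.52%, GAAANNGAAA in 3.44%, TGACG in 20.8%, ATTGG in 37.4% and TTCNNNGAA in 8.3%. Among the other class I heavy chain genes with a window, 1 of 15 had the spaced pair, H2-M3, whose expression is given below. These matches describe letters in a reference sequence and do not show binding.

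**Figure D2:**
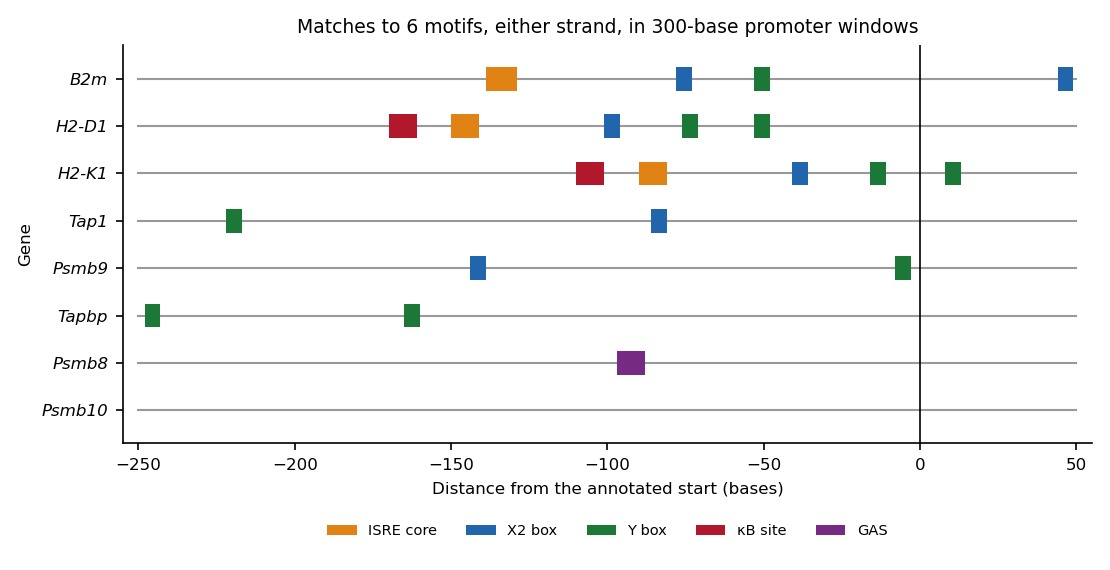
Matches to the 6 motifs in the promoter windows of 8 members, drawn by distance in bases from the annotated start at 0 (for H2-K1 the more upstream of its starts); coloured blocks are matches on either strand. B2m, H2-D1 and H2-K1 each have an ISRE core and an X2 box followed by a Y box, and Psmb10 has no match.

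Tap1 and Tap2, the subunits of the peptide transporter, were both lower in the 3 TAT-Cre cultures but in different order. Tap1 had intensities of 224 in parental, 155 in Rb-deleted, 146 in WT Rb and 105 in ΔCdk Rb MEFs. The ΔCdk Rb array was lowest, and Rb-deleted and WT Rb MEFs did not differ beyond bead error. Log2 ratios to parental were -0.57 (0.09), -0.68 (0.11) and -1.26 (0.12). Tap2 had 742 in parental and 326, 338 and 345 in Rb-deleted, WT Rb and ΔCdk Rb MEFs, with no difference among these 3 beyond bead error. Its log2 ratio of -1.20 (0.07) in Rb-deleted MEFs was the lowest of the 9 genes on that array and stood at rank 103 from the bottom of the 12616 genes. In WT Rb and ΔCdk Rb MEFs it was -1.13 (0.09) and -1.07 (0.08).

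Tapbp, the chaperone that bridges empty class I molecules and TAP, did not differ from its parental level by more than 1.6-fold on any array. Its probe at position 2040 had intensities of 200.2 in parental, 174 in Rb-deleted, 172 in WT Rb and 153 in ΔCdk Rb MEFs, and no neighbours in this order differed beyond bead error. Log2 ratios to parental were -0.20 (0.12), -0.23 (0.11) and -0.39 (0.15), of which the first was within bead error. This probe shares runs of 16 or more bases with 10 probes of other genes, the longest of 28 bases with Chka. The other probe, at position 1036, shares no such run and had 126, 100.2, 126 and 118. Its log2 ratios were -0.39 (0.15), 0.00 (0.15) and -0.10 (0.15), of which only the first was larger than bead error. The probes thus agreed on no difference past 1.6-fold and not on the order of the arrays.

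Tap1 and Psmb9 start back to back on chromosome 17, in a row of 4 genes with Psmb8 and Tap2 in the annotation used. The 225 bases between the start sites of Tap1 and Psmb9, chr17:34187331-34187555 on the plus strand, are shown because these adjacent genes were both lowest in ΔCdk Rb MEFs. This was not particular to them. The probes that stand for Psmb10, Psmb8 and Tapbp were also lowest there, the latter 2 within bead error of the next array.
Tap1 and Psmb9: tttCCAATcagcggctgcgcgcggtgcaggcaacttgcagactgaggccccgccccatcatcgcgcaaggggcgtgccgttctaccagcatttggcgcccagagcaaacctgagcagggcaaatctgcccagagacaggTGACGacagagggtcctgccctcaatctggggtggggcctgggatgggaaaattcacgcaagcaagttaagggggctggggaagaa

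Capitals mark 1 TGACG match, which starts at -86 from the start of Tap1, and 1 match to ATTGG on the minus strand near the start of Psmb9. Both are shared by the windows of the 2 genes. GGGATTCCC, GAANNGAAA and GAAANNGAAA had no match in these windows, nor in those of Psmb8, Psmb10 and Tapbp. Other forms of kappaB sites and ISREs were not searched. Psmb8 had a GAS match at -97.

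**Figure D3:**
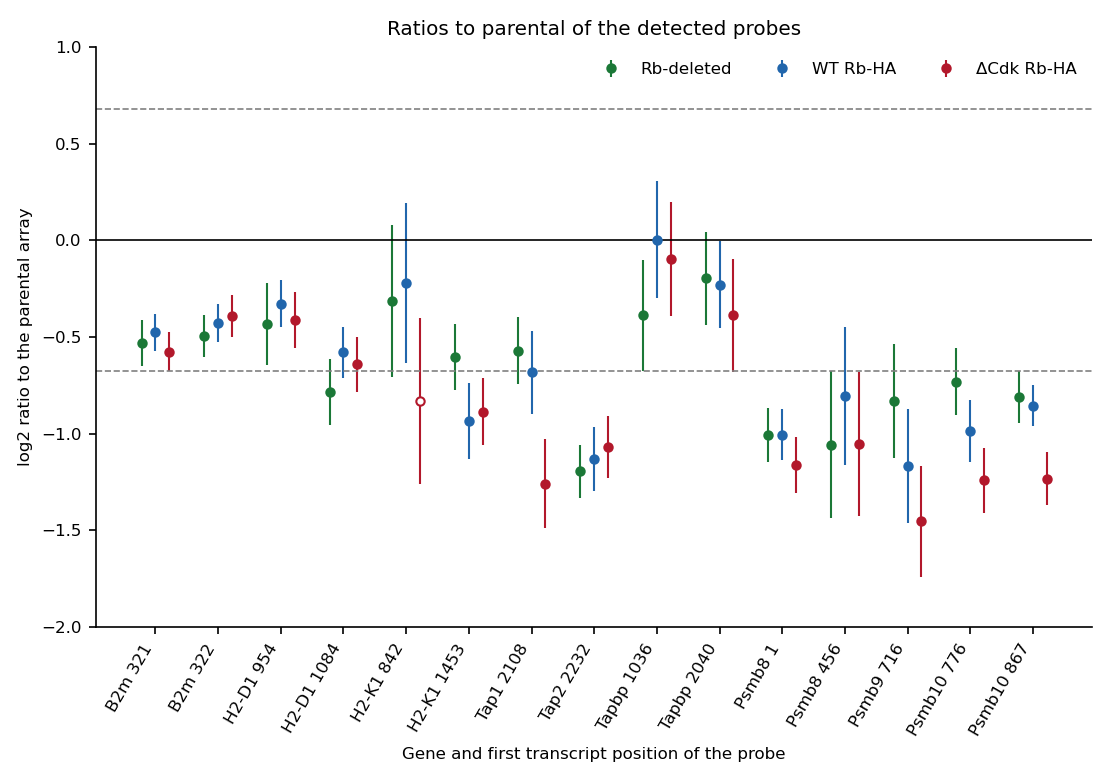
Log2 ratio to the parental array of the 15 detected member probes, named by gene and first transcript position, in Rb-deleted (green), WT Rb (blue) and ΔCdk Rb (red) MEFs, 1 array each; bars are 1.96 bead standard errors, dashed lines mark 1.6-fold and the open symbol was not detected in ΔCdk Rb MEFs. All points are below 0 except Tapbp at position 1036 in WT Rb MEFs (0.00), and the lowest is Psmb9 in ΔCdk Rb MEFs (-1.45).

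Psmb8, Psmb9 and Psmb10 were lower past 1.6-fold on each of the 3 arrays, on all 5 of their probes. With a larger offset of 50 the dimmer Psmb8 probe, at position 456, was short of this filter on all 3 arrays (-0.63, -0.50 and -0.63) and so was Psmb9 in Rb-deleted MEFs (-0.63), and without background correction the same Psmb8 probe was short of it in WT Rb MEFs (-0.56). Psmb8, also named LMP7, had intensities of 963 in parental, 475 in Rb-deleted, 474 in WT Rb and 415 in ΔCdk Rb MEFs at position 1, with log2 ratios to parental of -1.01 (0.07), -1.01 (0.07) and -1.16 (0.07). Rb-deleted and WT Rb MEFs were level within bead error. The dimmer probe at position 456 gave 96.5, 57.9, 66.4 and 58.7 and log2 ratios of -1.06 (0.19), -0.81 (0.18) and -1.05 (0.19).

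Psmb9, or LMP2, had intensities of 170 in parental, 104 in Rb-deleted, 89.4 in WT Rb and 76.3 in ΔCdk Rb MEFs. It was the only member whose 4 arrays were each separated from the next by more than bead error. Log2 ratios to parental were -0.83 (0.15), -1.17 (0.15) and -1.45 (0.15), the last of which was rank 88 from the bottom of 12616 genes. Psmb10, or MECL-1, on chromosome 8, had 983 in parental, 553 in Rb-deleted, 529 in WT Rb and 402 in ΔCdk Rb MEFs at position 867 and 868, 521, 437 and 361 at position 776. Both probes were lowest in ΔCdk Rb MEFs, and they differed on whether WT Rb MEFs were below Rb-deleted MEFs by more than bead error. The ratios at position 867 were -0.81 (0.07), -0.86 (0.05) and -1.23 (0.07), and those at position 776 were -0.73 (0.09), -0.99 (0.08) and -1.24 (0.09).

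The subunits that Psmb8, Psmb9 and Psmb10 replace did not pass 1.6-fold on any array. Psmb5 gave log2 ratios of -0.42 (0.14) in Rb-deleted, -0.03 (0.15) in WT Rb and -0.12 (0.13) in ΔCdk Rb MEFs. Psmb6 gave 0.11 (0.06), 0.11 (0.06) and 0.14 (0.06), and Psmb7 gave -0.14 (0.05), 0.01 (0.05) and 0.03 (0.05). The log2 ratio of the inducible subunit minus that of its standard partner was below 0 in all 9 pairings and exceeded bead error in each. For Psmb8 against Psmb5 this difference was -0.59 (0.15), -0.98 (0.16) and -1.04 (0.15), for Psmb9 against Psmb6 -0.95 (0.16), -1.28 (0.16) and -1.60 (0.16), and for Psmb10 against Psmb7 -0.67 (0.09), -0.87 (0.08) and -1.26 (0.09). Over the 12 genes of the standard core and its assembly factor that were analysed (15 listed), no ratio passed 1.6-fold on any array and the medians were 0.11, 0.03 and 0.07. The interferon-inducible proteasome activator PA28 has 2 subunits. Psme1 gave -0.18 (0.06), -0.30 (0.06) and -0.67 (0.05), just short of 1.6-fold in ΔCdk Rb MEFs, and Psme2 gave -0.08 (0.08), -0.07 (0.09) and -0.13 (0.07), all within bead error.

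**Figure D4:**
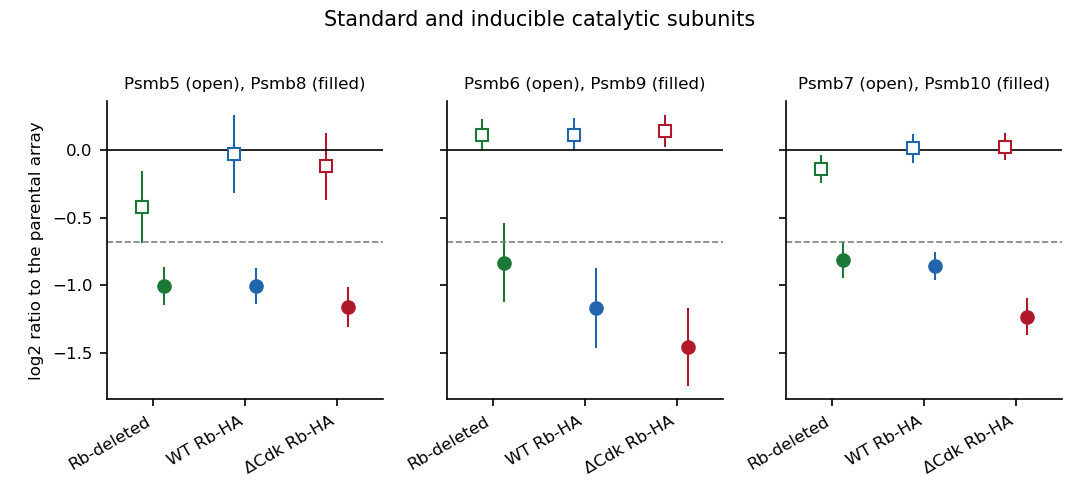
Log2 ratio to the parental array of each standard catalytic subunit (open squares) and the inducible subunit that replaces it (filled circles) in Rb-deleted, WT Rb and ΔCdk Rb MEFs, 1 array each; bars are 1.96 bead standard errors and the dashed line marks 1.6-fold lower. Filled circles lie below the dashed line in all 9 cases, and open squares lie above it.

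The class I genes stayed below their parental level with either form of Rb, apart from the Tapbp probe at position 1036 in WT Rb MEFs. Between WT Rb and Rb-deleted MEFs no member passed 1.6-fold in either direction, where 0.539% of all genes were higher and 0.484% lower, and the median log2 ratio of members was -0.03. Of the 15 detected member probes, 5 differed by more than bead error, in both directions. The share of all genes that differed by more than bead error is not given for this or the next comparisons. Such differences therefore describe single probes only. H2-K1 at position 1453 (-0.33, bead standard error 0.10), Psmb9 (-0.34, 0.12) and Psmb10 at position 776 (-0.25, 0.08) were lower in WT Rb MEFs. H2-D1 at position 1084 (0.20, 0.09) and Tapbp at position 1036 (0.39, 0.15) were higher, toward the parental level, while the brighter Tapbp probe, the other detected H2-D1 probe and the second Psmb10 probe were within bead error. ΔCdk Rb against Rb-deleted MEFs had 1 of 9 members lower past 1.6-fold, Tap1 at -0.69 (0.11), against 1.95% of all genes lower and 2.31% higher, and a median of -0.19. Psmb9 at -0.62 (0.12), Psmb10 at -0.42 (0.09) and H2-K1 at -0.28 (0.09) were also lower by more than bead error, and B2m, H2-D1, Tap2, Tapbp and Psmb8 were not. ΔCdk Rb against WT Rb MEFs, the comparison in which both cultures received TAT-Cre and a retrovirus, had no member past 1.6-fold, against 0.84% of all genes higher and 1.01% lower. Here Tap1 (-0.58, 0.13), Psmb10 (-0.38, 0.08), Psmb9 (-0.29, 0.12) and Psmb8 at position 1 (-0.16, 0.08; its dimmer probe was within bead error) were lower in ΔCdk Rb MEFs by more than bead error, and the median was -0.16. The brightest probes of the 3 surface genes differed by 0.09 or less between these arrays, within bead error. Of their other probes, B2m at position 321 was at -0.10 (0.06), also within it, and the dim H2-K1 probe at position 842, not detected in ΔCdk Rb MEFs, was at least 1.12-fold lower there.

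Genes around the route were taken from lists, each read beside the same share of all genes. Lower than parental past 1.6-fold were 2.98% of all genes in Rb-deleted, 2.46% in WT Rb and 3.3% in ΔCdk Rb MEFs. Of 27 other class I heavy chain genes, 22 had probes and 11 were detected and analysed, and 3, 3 and 5 of the 11 were lower past 1.6-fold in Rb-deleted, WT Rb and ΔCdk Rb MEFs, with medians of -0.26, -0.50 and -0.55. H2-T23, the source of Qa-1, which presents leader peptides of other class I chains, had 1187 in parental, 677 in Rb-deleted, 640.4 in WT Rb and 649.7 in ΔCdk Rb MEFs, a log2 ratio of -0.78 (0.07), -0.85 (0.06) and -0.78 (0.07). H2-M3, which presents N-formyl peptides and shares the spaced X2 and Y letters, gave -0.73 (0.12), -0.98 (0.11) and -0.91 (0.13). H2-T10 gave -0.64 (0.07), -0.68 (0.05, just short of the filter) and -0.97 (0.05), and H2-Q5 gave -0.77 (0.09), -0.70 (0.08) and -0.68 (0.09). H2-Q7 was lower past 1.6-fold in ΔCdk Rb MEFs (-0.77, 0.15) and not on the other arrays. H2-Bl went the other way. It was not detected in parental MEFs (54.7) and gave 70.9 in Rb-deleted, 74.0 in WT Rb and 73.7 in ΔCdk Rb MEFs, all near background. These were at least 1.45-, 1.48- and 1.52-fold above parental. In ΔCdk Rb MEFs its log2 ratio (0.71) made it the 1 gene of the 11 higher past 1.6-fold (2.58% of all genes), though its bound was short of that. Near-identical heavy chain genes can share signal, so these values are not independent of each other.

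Factors that load and trim peptides had medians of -0.05, -0.01 and -0.12 over 12 of 16 listed genes. Lower past 1.6-fold were 2, 0 and 1 of the 12 (2.98%, 2.46% and 3.3% of all genes). Of the 2, Lnpep was not detected in Rb-deleted MEFs and only Tapbpl was measured on both arrays. Tapbpl, a relative of tapasin that edits peptides, gave -0.68 (0.14), -0.41 (0.13) and -0.74 (0.14). Lnpep, an aminopeptidase, was detected on the parental array only, and its bound in Rb-deleted MEFs was 1.16-fold lower, short of the filter. Regulators of class I transcription, 22 of 28 analysed, had 4, 5 and 6 genes lower past 1.6-fold (2.98%, 2.46% and 3.3% of all genes) and none higher. The fifth in WT Rb MEFs was Irf8, which was not detected on that array and is bounded there at 1.01-fold lower only, so 4 were detected on both arrays. Irf7, a transcription factor of the interferon response, had 372 in parental, 123 in Rb-deleted, 118 in WT Rb and 58.6 in ΔCdk Rb MEFs, and its log2 ratio in ΔCdk Rb MEFs was -3.29 (0.17). Stat2 and Irf9, whose products act together at ISREs, were at -1.05 and -1.01 in Rb-deleted, -1.02 and -1.10 in WT Rb, and -2.12 and -2.08 in ΔCdk Rb MEFs. Irf7, Stat2 and Irf9 were taken by the size of their ratios to parental in ΔCdk Rb MEFs. Their log2 ratios to WT Rb MEFs there were -1.44 to -0.98, and those of the 9 members -0.58 to 0.06. The medians were -0.17 over all 22 regulators and -0.16 over the members. Irf1, an activator of Tap1, Psmb9 and class I genes, gave -0.42 (0.06), -0.57 (0.06) and -0.79 (0.06) relative to parental. Nfkb1, a subunit of NF-kappaB, gave -0.29 (0.05), -0.34 (0.06) and -0.68 (0.06). From WT Rb to ΔCdk Rb MEFs Irf1 was at -0.23 and Nfkb1 at -0.34, within the members' range. The genes of the X and Y box complexes that were analysed, Rfxap, Nfya, Nfyb, Nfyc and Creb1, lay between -0.26 and 0.48 relative to parental.

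**Figure D5:**
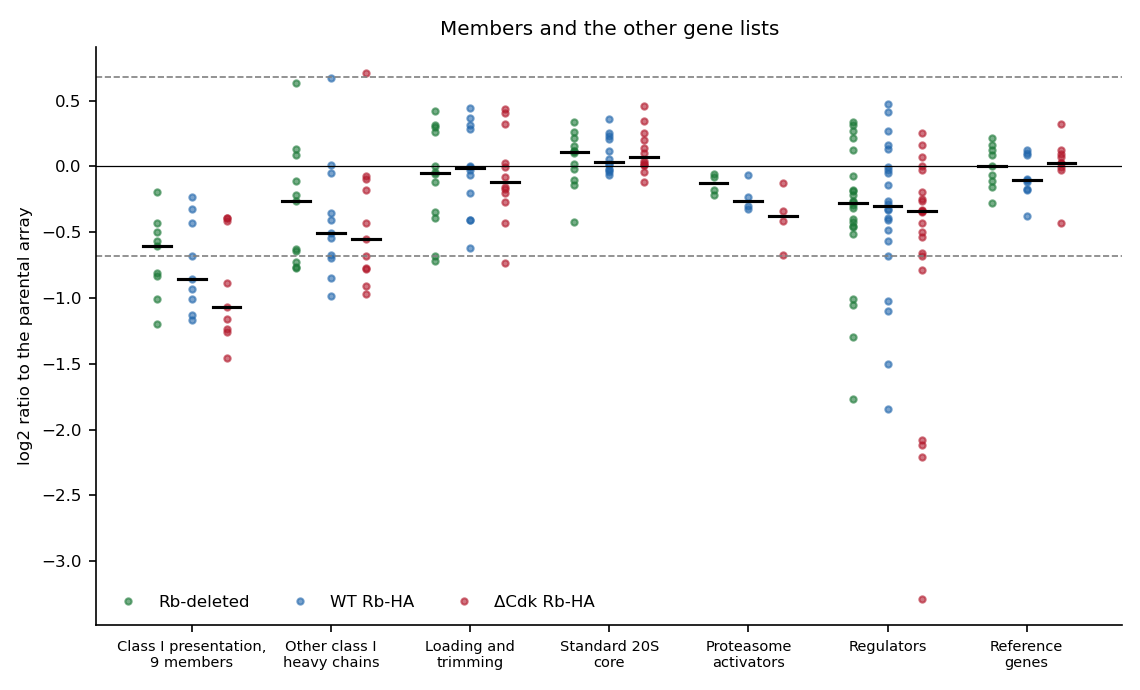
Log2 ratio to the parental array of each analysed gene (points) in the 9 members, other class I heavy chains, loading and trimming factors, the standard 20S core, proteasome activators, regulators of class I transcription and reference genes, for Rb-deleted, WT Rb and ΔCdk Rb MEFs, 1 array each; black lines are list medians and dashed lines 1.6-fold. The members' medians are -0.60, -0.86 and -1.07, those of the standard core lie between 0.03 and 0.11, and the lowest regulator is Irf7 at -3.29.

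Most markers of white blood cells were also lower than in parental MEFs. Of 19 leukocyte markers with a probe, 13 or 14 were detected per array. The summed intensity of all 19 was 10962 in parental, 5926 in Rb-deleted, 5456 in WT Rb and 6807 in ΔCdk Rb MEFs. Lyz alone gave 4801, 2976, 2803 and 3611 of these sums, so they mostly follow a few bright markers. The median log2 ratios over 14 analysed markers were -0.84, -0.93 and -0.88, with 9, 10 and 9 lower past 1.6-fold (2.98%, 2.46% and 3.3% of all genes). Emr1, a macrophage marker, was at -1.69, -2.02 and -2.02 and Laptm5 at -1.40, -1.78 and -1.49, the lowest of the list in Rb-deleted MEFs. Others did not follow: Cd53 was at -1.04, -0.62 and 0.39, Lyz2 at -0.85, -0.95 and -0.17, and Cd3e at -0.02, 0.21 and 0.07. The common leukocyte marker Ptprc, Itgam, Fcer1g and Lyz1 were not detected on any array. Leukocytes carry much class I, and the part of such cells in the members' values was not tested. In such bulk samples fewer cells of a type and less RNA per cell cannot be told apart. The leukocyte sum was higher in ΔCdk Rb than in WT Rb MEFs, but single markers went both ways. Their log2 ratios between these arrays ran from -0.32 to 1.00 with a median of 0.15, and 5 of 14 were below 0. Of 13 class II presentation genes 4 were analysed, and Cd74, Ciita, H2-Aa and H2-Eb1, which mark professional antigen-presenting cells, were not detected on any array. Ctss, a lysosomal protease of that route, gave -1.17, -1.51 and -1.15. The others analysed did not follow it. H2-DMa gave -0.29, 0.03 and 0.39, and H2-DMb1 gave -0.15, 0.12 and 0.23. H2-Ab1 was not detected in parental and WT Rb MEFs and was at least 1.27-fold above parental in ΔCdk Rb MEFs. Fibroblast markers had medians of -0.15, -0.12 and -0.35, with Col3a1 lower past 1.6-fold in Rb-deleted and ΔCdk Rb MEFs (-0.73 and -0.98).

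The genes outside these lists whose 3 ratios to parental came closest to the members' medians, by Euclidean distance over the 3 arrays among 10730 genes detected on all of them, were Zhx2, Parp4, Col5a2, Mlkl and Xrn1. Zhx2, a transcriptional repressor and the nearest, had log2 ratios of -0.58, -0.90 and -1.01, at a distance of 0.07. Xrn1, an RNA exonuclease and the fifth, had -0.54, -0.74 and -0.94, at a distance of 0.18.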

How the data were processed

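RNA from 4 cultures was hybridized to Illumina mouse whole-genome BeadChip arrays, 1 per condition, all on the same BeadChip by their column names. Conditions were taken from the sample labels. The authors deposited, without normalization between arrays, the bead-averaged intensity of each probe on a linear scale and the bead standard error of that intensity, with the number of beads. The deposited table also holds a detection p-value per probe and array, with steps of 1 in 936. Scanner software and background steps are not given in the sources used here. Genome positions of the probes mix builds and were not used.

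Intensities were background corrected by normexp with the background inferred from the detection p-values (limma 3.58.1 in R 4.3.3, offset 16), quantile normalized over the 4 arrays and converted to log2 values. A gene was included if 1 or more arrays had a probe with a p-value below 0.01, each gene read by its brightest probe, and fields beyond the header in 2 rows were ignored. Bead standard errors were carried through each array's mapping and combined over both arrays of a ratio. Further steps ran in pandas 2.3.3, numpy 2.4.6 and matplotlib 3.10.9 under Python 3.11.15, and the calculation was tested on simulated data. Where a probe was detected on only 1 array of a pair, the bound was taken against the higher of its own value and the lowest detected value on the dim array.

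The members and the gene lists were chosen with earlier results of these data known. Named genes were all members, their standard proteasome partners, both PA28 subunits, Rb1, the 5 nearest genes, and from each other list at most 6 genes past 1.6-fold against parental, taken by size in ΔCdk Rb MEFs. A gene that this rule takes is not reported here. Other genes (reference and box-binding genes, Irf8, Lyz, class II genes other than Ctss, and markers undetected or not lower) were named after their values were seen. Alternatives changed the background correction, offset, normalization, detection filter, probes per gene and threshold.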

Additional observations from a re-analysis of the deposited data

How the results depend on the processing

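No paired analysis was possible because each condition had 1 array. Over the alternatives no member turned above parental, except Tapbp in WT Rb MEFs (0.00) when probes sharing 16 bases with another gene were dropped, a choice made after seeing the data that leaves 8 members. Across alternatives the members' median log2 ratio to parental ranged from -0.71 to -0.59 in Rb-deleted, -0.93 to -0.68 in WT Rb and -1.16 to -0.99 in ΔCdk Rb MEFs. It moved by more than bead error once, to -0.68 in WT Rb MEFs with the mean over detected probes. Of the 9 members, 3 in place of 4 were lower past 1.6-fold in Rb-deleted MEFs at an offset of 50, where Psmb9 was at -0.63, and 5 in place of 6 in WT Rb MEFs without background correction, at an offset of 50, with median scaling and with the mean over detected probes. At a 2-fold threshold 2 members were lower in Rb-deleted, 3 in WT Rb and 5 in ΔCdk Rb MEFs, against 1.25%, 1.19% and 1.43% of all genes. Tap1 was the only member past 1.6-fold between ΔCdk Rb and Rb-deleted MEFs. That count was 0 without background correction, at an offset of 50, with median scaling and at the 2-fold threshold. At an offset of 1 it was 2, against 5.14% of all genes lower. The count between ΔCdk Rb and WT Rb MEFs was then 1, against 3.07% of all genes lower. The inducible minus standard difference was below 0 in all 9 pairings under each alternative run. Offsets act most on dim probes: Psmb9 in ΔCdk Rb MEFs was at -1.78 with an offset of 1 and -1.04 with 50. Signal near background limits Psmb9, the dimmer Psmb8 and H2-K1 probes, and Tapbp.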
